A study of Rattus norvegicus with 325 samples.

Results

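The collagen genes were the lines of the count files whose symbol has the form Col, a chain-type number, the letter a and a chain number, and they numbered 27 of the 17315 symbols in the files. Of these, 10 code for chains of the fibrillar collagens (Col1a1, Col1a2, Col2a1, Col3a1, Col5a1, Col5a2, Col5a3, Col11a1, Col11a2 and Col27a1). Another 6 belong to basement membranes or to the zone next to them (Col4a1, Col4a3, Col4a4, Col7a1, Col15a1 and Col18a1). The other 11 are fibril-associated, type VI, transmembrane or short-chain types (Col6a2, Col6a4, Col8a1, Col9a1, Col9a2, Col13a1, Col14a1, Col16a1, Col17a1, Col23a1 and Col26a1). A further 18 collagen genes of the same classes, among them Col4a2, Col6a1, Col6a3, Col12a1, Col19a1, Col22a1 and Col25a1, were not analysed here. Col1a2 was counted on 2 lines, which were summed; the larger line held 88.8% of its counts.

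Male Sprague Dawley rats, an outbred strain, were studied at 6 and 9 months, at 12 and 18 months and at 21, 24 and 27 months of age, and whole-tissue RNA was sequenced from the diaphragm, the muscle of breathing, and from 3 limb muscles, the gastrocnemius, soleus and tibialis anterior. The libraries numbered 83 for diaphragm, 73 for gastrocnemius, 84 for soleus and 85 for tibialis anterior, with 9 to 13 for each muscle and age, and held 17555294 to 85316329 counts each. The labels number the libraries but do not name the animals, so p-values measure the spread between libraries. Within a muscle and age, the paper counts 1 animal for each sample. Which libraries of different muscles came from 1 animal is not labelled, and the main fit of all 4 muscles does not use it. The labelled muscles carried the transcripts that define them. Myh7, the slow myosin heavy chain, had a median of 47512 CPM (read counts scaled to a common library size) in soleus and 2204 CPM in tibialis anterior, and Myh4, the fast glycolytic myosin heavy chain, had medians of 14.2 CPM in soleus and 77729 CPM in tibialis anterior. Each age was collected on 1 day, so age and collection day cannot be told apart. The sample numbers in the labels fall into 3 runs: all gastrocnemius libraries are in the first, and the third holds the 12-month libraries of diaphragm, soleus and tibialis anterior and 1 library from each of these at 21 months. Gastrocnemius against another muscle therefore cannot be told apart from these runs, nor can 12 against 6 months in diaphragm, soleus and tibialis anterior; in gastrocnemius both ages are in the first run. A further 6 libraries lay over 1.9 times as far from their group mean as the median library of the group (diaphragm at 6 months, replicate 0, and at 18 months, replicate 11; gastrocnemius at 6 months, replicate 4, and at 24 months, replicate 0; tibialis anterior at 21 months, replicate 7, and at 24 months, replicate 6). The counts of genes given below for 27 against 6 months were the same without them.

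Collagens are the main structural proteins of the connective tissue that surrounds muscle fibres, bundles them and joins them to tendon. In muscle most fibrillar collagen is type I, with the chains of Col1a1 and Col1a2, and type III, the chain of Col3a1; types V and XI are built into these fibrils and set their diameter. Fibroblasts and fibro-adipogenic progenitors make most of the fibrillar chains, while type IV collagen forms the network of the basement membrane around each fibre and each capillary. A level of RNA in whole tissue is not the amount of collagen, which is long-lived and is removed by its own proteases, and in whole tissue fewer cells of a type and less RNA per cell cannot be told apart.

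Promoters are shown for 2 fibrillar genes whose RNA fell with age, Col1a2 and Col5a3, and for the 2 genes that rose late in the limb muscles, Col23a1 and Col8a1. Each stretch runs from 250 bases before to 50 bases after the RefSeq start of the gene in the GRCr8 assembly, and is written in the direction of transcription. This is a later assembly than the one the reads were counted on, so it is used for these sequences and for neighbouring genes only. The capitals mark the CCAAT box (CCAAT or its reverse complement ATTGG), the GC box (GGGCGG or CCGCCC) and the TATA box (TATAAA or TTTATA).
Col1a2 (chr4:33518307-33518606, plus strand): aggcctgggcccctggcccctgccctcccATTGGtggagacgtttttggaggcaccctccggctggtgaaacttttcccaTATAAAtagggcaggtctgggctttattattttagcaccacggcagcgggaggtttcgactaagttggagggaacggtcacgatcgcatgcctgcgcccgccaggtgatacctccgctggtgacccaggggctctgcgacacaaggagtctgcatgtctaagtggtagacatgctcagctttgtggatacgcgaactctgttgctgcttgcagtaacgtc
Col5a3 (chr8:27625899-27626198, minus strand): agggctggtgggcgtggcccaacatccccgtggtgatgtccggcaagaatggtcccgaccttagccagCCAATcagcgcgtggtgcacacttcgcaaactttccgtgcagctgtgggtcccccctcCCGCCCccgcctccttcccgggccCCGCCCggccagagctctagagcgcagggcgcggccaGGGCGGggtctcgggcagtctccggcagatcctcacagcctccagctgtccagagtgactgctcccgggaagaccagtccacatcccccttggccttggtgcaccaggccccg
Col23a1 (chr10:36050077-36050376, plus strand): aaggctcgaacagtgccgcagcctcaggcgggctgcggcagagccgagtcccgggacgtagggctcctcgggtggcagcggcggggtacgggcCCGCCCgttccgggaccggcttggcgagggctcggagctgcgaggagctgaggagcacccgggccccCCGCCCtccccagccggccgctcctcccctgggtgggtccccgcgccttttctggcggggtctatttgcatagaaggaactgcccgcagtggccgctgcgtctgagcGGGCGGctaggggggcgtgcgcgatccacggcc
Col8a1 (chr11:56246532-56246831, plus strand): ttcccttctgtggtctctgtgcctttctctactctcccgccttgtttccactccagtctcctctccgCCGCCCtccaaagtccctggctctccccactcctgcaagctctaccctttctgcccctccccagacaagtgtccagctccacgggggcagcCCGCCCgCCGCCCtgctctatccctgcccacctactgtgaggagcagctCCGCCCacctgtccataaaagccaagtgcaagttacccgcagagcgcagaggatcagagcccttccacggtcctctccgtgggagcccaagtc
The Col1a2 window held 1 CCAAT box, 1 TATA box and no GC box. The Col5a3 window held 1 CCAAT box and 3 GC boxes, the Col23a1 window 3 GC boxes and the Col8a1 window 4 GC boxes. Over the 22 collagen genes with a promoter in the table, 54.5% had at least 1 GC box, 27.3% a CCAAT box and 13.6% a TATA box, against 33.1%, 37.5% and 14.2% of the 33469 promoters. These matches are a description of the letters in the windows.

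At 6 months the muscles differed widely in the RNA of some collagen genes (the plot of levels at 6 months). Levels are CPM after TMM scaling of all libraries together, and differences between muscles are log2 differences from a limma-voom fit of all 4 muscles. A gene was called when its Benjamini-Hochberg adjusted p over all genes tested was under 0.05 and its change was over 1.5-fold. For Col1a1 the lowest, median and highest libraries at 6 months were 980, 1195 and 2031 CPM in gastrocnemius and 631, 1340 and 2119 CPM in soleus. They were 267, 473 and 758 CPM in diaphragm and 189.7, 365 and 468 CPM in tibialis anterior. Every gastrocnemius library thus lay above every diaphragm and tibialis anterior library. Tibialis anterior was lower than soleus by 2.0 ± 0.19 (log2, SE; adjusted p = 7.3e-21) and lower than gastrocnemius by 1.85 ± 0.20 (adjusted p = 2.1e-16), whereas the Col1a1 levels of gastrocnemius and soleus overlapped over most of their range and did not pass the test.

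**Figure D1:**
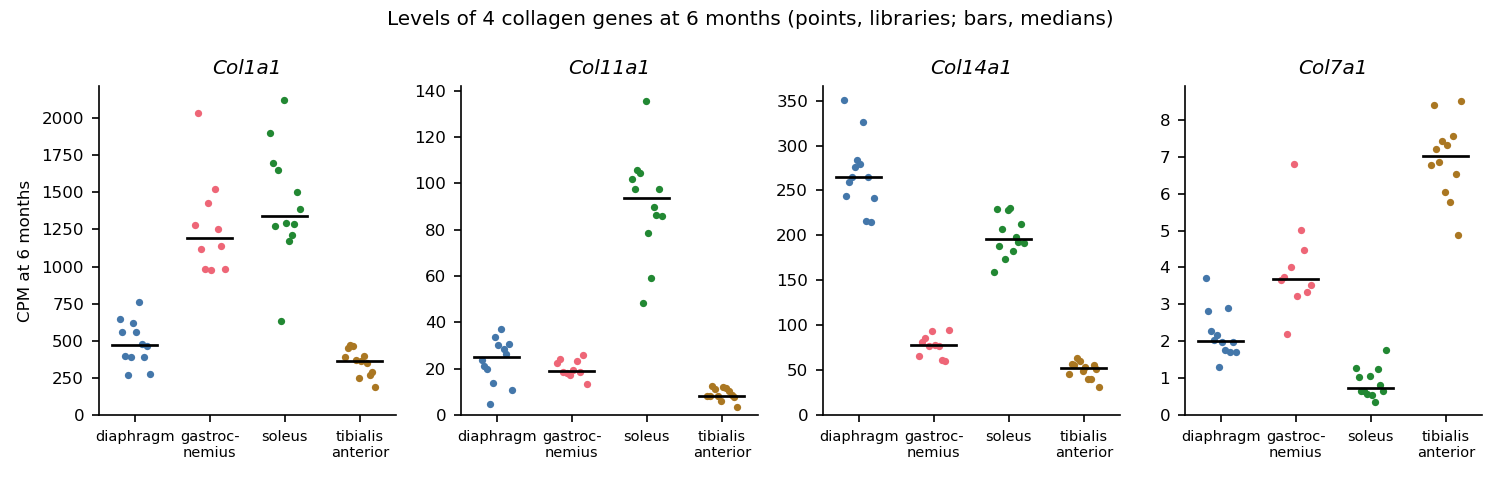
CPM at 6 months (y axis, from 0) of Col1a1, Col11a1, Col14a1 and Col7a1 in the 4 muscles (x axis); points are libraries and bars their medians. Col1a1 was highest in soleus and gastrocnemius (medians 1340 and 1195 CPM), Col11a1 in soleus (93.6 CPM), Col14a1 in diaphragm (265 CPM) and Col7a1 in tibialis anterior (7.03 CPM).

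Each muscle had its own order for the other chains. Col11a1, a chain of the type XI collagen that nucleates fibrils, had a median of 93.6 CPM in soleus (48.6 to 136), 25.2 CPM in diaphragm (4.94 to 37.3), 19.1 CPM in gastrocnemius (13.2 to 25.9) and 8.37 CPM in tibialis anterior (3.60 to 12.7). All soleus libraries lay above all libraries of the other muscles, and tibialis anterior was lower than soleus by 3.33 ± 0.20 (adjusted p = 9.5e-45). Col14a1, a fibril-associated collagen of the fibril surface, was highest in diaphragm, with a median of 265 CPM (214 to 350), followed by soleus at 196 CPM (159 to 231), gastrocnemius at 77.5 CPM (60.6 to 94.8) and tibialis anterior at 52.3 CPM (31.6 to 63.99). It was lower in tibialis anterior than in diaphragm by 2.42 ± 0.11 (adjusted p = 2.3e-62). Col7a1, which forms the anchoring fibrils beneath some basement membranes, had another order, with 7.03 CPM in tibialis anterior (4.88 to 8.51), 3.70 CPM in gastrocnemius (2.19 to 6.80), 2.01 CPM in diaphragm (1.31 to 3.70) and 0.736 CPM in soleus (0.361 to 1.76). The tibialis anterior level exceeded that of soleus by 3.07 ± 0.20 (adjusted p = 2.1e-39).

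The number of collagen genes called between muscles at 6 months was 13 for gastrocnemius against diaphragm, 11 for soleus against diaphragm and 12 for tibialis anterior against diaphragm, beside 37.3%, 23.9% and 35.1% of all 12784 genes tested. It was 10 for soleus against gastrocnemius, 9 for tibialis anterior against gastrocnemius and 15 for tibialis anterior against soleus, beside 45.4%, 17.3% and 42.9% of all genes. In the last of these, 13 of the 15 were lower in tibialis anterior, beside 24.1% of all genes lower and 18.8% higher. For gastrocnemius against diaphragm 6 were higher and 7 lower, beside 16.5% and 20.8% of all genes. Under total-count scaling 4 were higher and 10 lower in that comparison. All these counts are out of at most 27 collagen genes, and the number in the joint fit is not given here. They are not read as a difference between collagen genes and all genes. The basement membrane chain Col4a1 was not called in any of the 6 comparisons. Col15a1, whose collagen XV links the basement membrane to the fibrils around it, was lower in the 3 limb muscles than in diaphragm, by 0.66 ± 0.08 in gastrocnemius, 0.91 ± 0.08 in soleus and 0.84 ± 0.08 in tibialis anterior. Tendon cell markers also differed at 6 months, with 7 of the 8 listed: their summed level was 861 to 1393 CPM in gastrocnemius, 559 to 1752 CPM in soleus, 114 to 817 CPM in diaphragm and 115 to 319 CPM in tibialis anterior. The part of tendon in the samples was not tested.

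Ageing was followed within each muscle, in a limma-voom fit of its own over all 7 ages. After the filter on low counts, 23 collagen genes were tested in diaphragm, 24 in gastrocnemius, 25 in soleus and 24 in tibialis anterior. Col6a4 and Col9a2 passed in no muscle, Col26a1 passed in soleus only and Col9a1 in the limb muscles only. At 27 against 6 months, 8 collagen genes were lower and none higher in diaphragm, beside 4.25% and 3.27% of all genes tested. For the count of 0, 1 collagen gene was higher in diaphragm at an unadjusted p under 0.05 and none was called by edgeR or DESeq2. In gastrocnemius 7 were lower and 3 higher, beside 7.76% and 15.1% of all genes, and edgeR and DESeq2 each called 6 lower. In soleus 6 were lower and 2 higher, beside 5.78% and 9.21%. In tibialis anterior 4 were lower and 4 higher, beside 10.4% and 17.2%. Under total-count scaling the split in tibialis anterior was 3 lower and 6 higher.

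**Figure D2:**
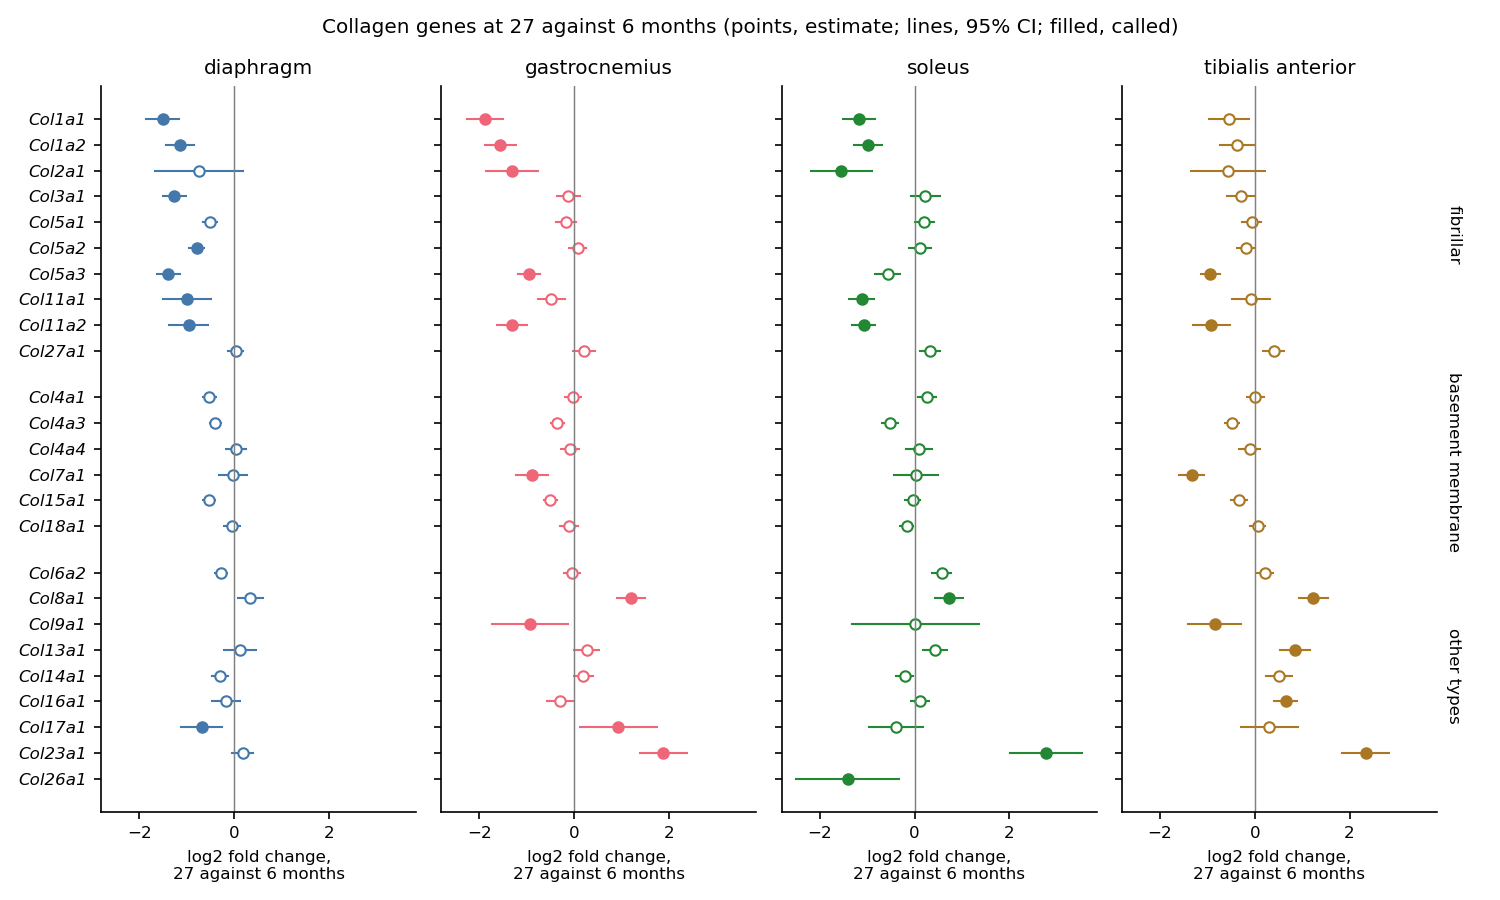
Log2 fold change at 27 against 6 months (x axis) of each tested collagen gene (y axis, by class) in the 4 muscles; points are estimates, lines 95% confidence intervals, and filled points genes called. Most fibrillar genes lie to the left, above all in diaphragm (7 of 10 called lower). Col27a1 lies to the right in each muscle, Col5a2 in gastrocnemius and soleus, and Col3a1 in soleus, none of them called. Basement membrane genes lie between -0.53 and 0.26 except Col7a1 in gastrocnemius and tibialis anterior. Col23a1 and Col8a1 lie to the right in the limb muscles.

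The fibrillar and basement membrane medians lay apart in diaphragm, gastrocnemius and soleus and closer together in tibialis anterior. No test compared the classes. Of the 10 fibrillar genes, 7 were called lower in diaphragm, 5 in gastrocnemius, 5 in soleus and 2 in tibialis anterior, and their median log2 changes were -0.97, -0.72, -0.77 and -0.33, beside medians over all genes tested of 0.00, 0.04, 0.02 and 0.02. No fibrillar gene was called higher by limma, edgeR or DESeq2 in any muscle at 27 months; at an unadjusted p under 0.05 the numbers higher were 0, 0, 2 and 1. Of the 6 basement membrane genes, only Col7a1 was called, lower in gastrocnemius and tibialis anterior, and the class medians were -0.22, -0.23, 0.00 and -0.22. The 7 to 9 other genes tested had medians of -0.17, 0.23, 0.12 and 0.58, with 0, 3, 2 and 4 of them higher and 1 lower in each muscle. The plot of class medians by age shows the fibrillar line below the basement membrane line from 12 months on in every muscle.

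**Figure D3:**
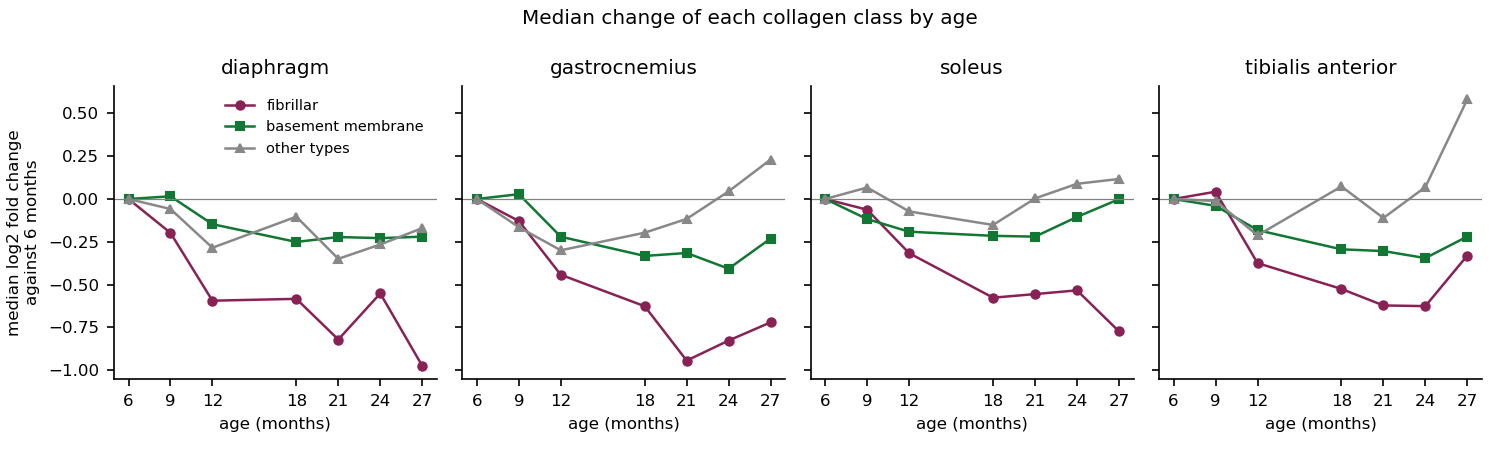
Median log2 fold change against 6 months (y axis; 0 at 6 months by construction) of the fibrillar, basement membrane and other collagen genes at each age (x axis, months) in the 4 muscles. At 27 months the fibrillar medians were -0.97, -0.72, -0.77 and -0.33 in diaphragm, gastrocnemius, soleus and tibialis anterior, and the basement membrane medians between -0.23 and 0.00.

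Col1a1 RNA was called lower in all 4 muscles at 18 months, and in diaphragm and gastrocnemius already at 12 months. In gastrocnemius the median level of Col1a1 was 1195 CPM at 6 months, 1018 at 9, 539.9 at 12, 378 at 18, 317 at 21, 234 at 24 and 328 at 27 months. At 27 months its lowest, median and highest libraries were 204, 328 and 794 CPM, and all 11 lay below every 6-month library. The change at 27 months was -1.89 ± 0.19 (log2, SE), a 3.71-fold fall (adjusted p = 2.1e-13). In diaphragm Col1a1 went from 473 CPM at 6 months (267 to 758) to 157 CPM at 27 months (71.3 to 304), with 10 of the 12 older libraries below every young one and a change of -1.51 ± 0.17 (adjusted p = 4.1e-11). In soleus it went from 1340 CPM (631 to 2119) to 641 CPM (306 to 1019), with 5 of 12 libraries below all of those at 6 months and a change of -1.17 ± 0.18 (adjusted p = 2.3e-08).

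Tibialis anterior followed another course. There the median of Col1a1 was 365 CPM at 6 months, 198 at 12, 215 at 18, 130.5 at 21, 131 at 24 and 232 at 27 months, and the 27-month libraries (105 to 433 CPM) overlapped the 6-month libraries (189.7 to 468 CPM). The change was called at 18 months (-0.66), 21 months (-1.25) and 24 months (-1.23), but not at 27 months (-0.55 ± 0.21, adjusted p = 0.017), where it was under 1.5-fold. At 27 against 18 months it was 0.12 ± 0.21 (adjusted p = 0.64). The comparisons against 6 months share the 6-month libraries, and a higher level at 27 than at 24 months cannot be told apart from a difference between collection days.

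**Figure D4:**
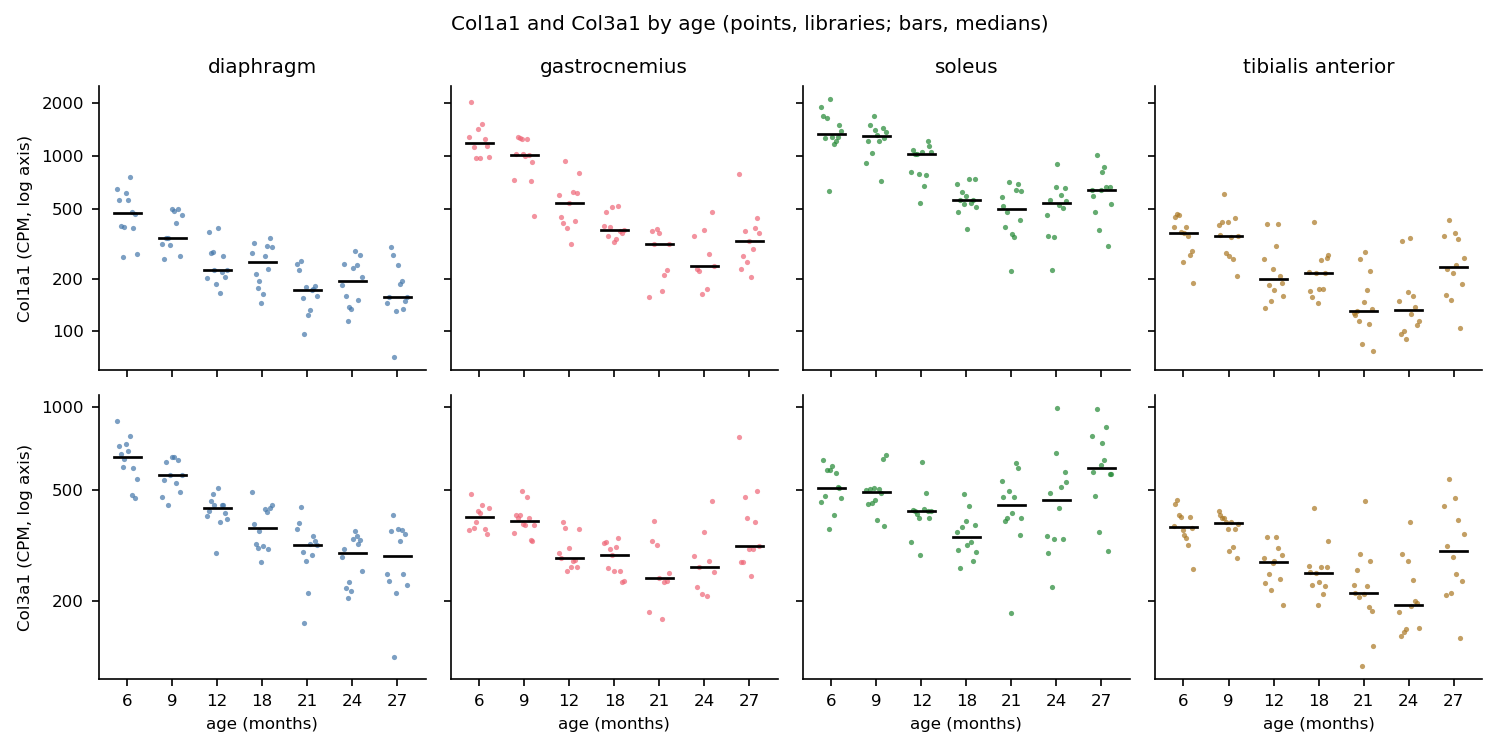
CPM (y axis, log scale) of Col1a1 (top) and Col3a1 (bottom) at each age (x axis, months) in the 4 muscles; points are libraries and bars medians. Col1a1 falls in each muscle, from a median of 1195 to 328 CPM in gastrocnemius, whereas Col3a1 ends lower in diaphragm (662 to 290.1 CPM) and not in soleus (512 to 601 CPM).

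Col1a2, the partner chain of Col1a1, moved with it. It changed by -1.13 ± 0.15 in diaphragm, -1.56 ± 0.16 in gastrocnemius and -0.98 ± 0.15 in soleus, all called, and by -0.37 ± 0.19 in tibialis anterior (adjusted p = 0.065). Over the libraries of a muscle, after the mean of each age was removed, the log2 levels of Col1a1 and Col1a2 had correlations of 0.97 to 0.98; these are a description, since the libraries share depth scaling and connective tissue content. The log2 ratio of Col1a1 to Col1a2, set to 0 at 6 months, was -0.37 ± 0.18 (SD, n = 12) in diaphragm, -0.33 ± 0.12 (n = 11) in gastrocnemius, -0.19 ± 0.17 (n = 12) in soleus and -0.17 ± 0.13 (n = 12) in tibialis anterior at 27 months, beside SDs of 0.10, 0.11, 0.09 and 0.08 at 6 months. No test was run on this ratio. In GRCr8 the 3' end of Col1a1 overlaps Sgca, the gene of the alpha-sarcoglycan of the muscle fibre membrane. No change of Sgca was called at 27 months (0.12, -0.18, 0.05 and -0.01 in diaphragm, gastrocnemius, soleus and tibialis anterior), and whether the counting used strand is not given in the sources used here.

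Col3a1, the only chain of type III collagen, fell at 27 months in diaphragm alone among the 4 muscles tested. Its median there was 662 CPM at 6 months (469 to 891) and 290.1 CPM at 27 months (126 to 407), and no 27-month library reached the 6-month range. The change was -1.26 ± 0.12, a 2.39-fold fall (adjusted p = 1.5e-13), and it was called at every age from 12 months on. In gastrocnemius Col3a1 was called lower at 21 months only (-0.66), and in tibialis anterior at 21 and 24 months (-0.73 and -0.83). At 27 months its changes were -0.12 ± 0.13, 0.23 ± 0.16 and -0.29 ± 0.15 in gastrocnemius, soleus and tibialis anterior, with overlapping groups. The difference from diaphragm was itself called for each limb muscle: 1.08 ± 0.21 for gastrocnemius (adjusted p = 2.2e-06), 1.42 ± 0.20 for soleus (adjusted p = 8.6e-10) and 0.92 ± 0.20 for tibialis anterior (adjusted p = 3.6e-05). The log2 ratio of Col1a1 to Col3a1 at 27 months, set to 0 at 6 months, was -1.77 ± 0.25 (SD, n = 11) in gastrocnemius and -1.40 ± 0.21 (n = 12) in soleus, against -0.25 ± 0.25 (n = 12) in diaphragm and -0.26 ± 0.12 (n = 12) in tibialis anterior. The SDs of this ratio at 6 months were 0.28 to 0.39, and it was not tested.

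The chains of type V collagen, which copolymerise with type I, did not move as a unit. Col5a3 had medians of 28.7 CPM at 6 months (25.7 to 36.6) and 13.4 CPM at 27 months (5.15 to 16.6) in diaphragm, with no overlap, and changed by -1.39 ± 0.12 (adjusted p = 1e-15). It went from 38.9 to 20.6 CPM in gastrocnemius, where the groups also stood apart (-0.96 ± 0.12), and from 34.0 to 16.7 CPM in tibialis anterior (-0.94 ± 0.10), where 11 of 12 older libraries lay below all young ones. In soleus the change was -0.57 ± 0.14 (adjusted p = 0.00026), under 1.5-fold. Col5a2 was called lower at 27 months in diaphragm only (-0.79 ± 0.08, from 91.6 to 53.8 CPM), and was 0.07 ± 0.09, 0.11 ± 0.11 and -0.18 ± 0.10 in gastrocnemius, soleus and tibialis anterior. Col5a1 was called in no muscle. It was -0.51 ± 0.07 in diaphragm, with an adjusted p of 3.2e-08 but under 1.5-fold.

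Type XI collagen fell as well. Col11a2 was called lower at 27 months in all 4 muscles, by 0.96 ± 0.21 in diaphragm, 1.32 ± 0.16 in gastrocnemius, 1.07 ± 0.12 in soleus and 0.92 ± 0.20 in tibialis anterior. Its median went from 19.9 to 9.18 CPM in soleus and from 16.1 to 6.73 CPM in gastrocnemius, with no overlap between the ages in either. Col11a1 was called lower in diaphragm (-0.99 ± 0.26) and soleus (-1.12 ± 0.13), where it went from 93.6 to 42.3 CPM and 11 of 12 older libraries lay below all young ones. In diaphragm all 12 older libraries lay below the 6-month median of Col11a1, but 0 lay below all young ones. Neither Col11a1 nor Col11a2 had a straight-line or logistic trend over the ages in diaphragm. In gastrocnemius Col11a1 was called from 12 to 24 months and reached -1.30 at 21 months, but was -0.49 ± 0.15 at 27 months (adjusted p = 0.0029). In tibialis anterior it was -0.08 ± 0.21 at 27 months, and soleus and tibialis anterior differed in this change by 1.05 ± 0.28 (adjusted p = 0.0011). The remaining fibrillar genes were Col2a1, a cartilage collagen listed at a median of 1.70 CPM in soleus at 6 months, which was called lower in gastrocnemius (-1.31) and soleus (-1.54), and Col27a1, which was called in no muscle (0.04 to 0.40).

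Counts of groups that did not overlap followed the same genes. At 27 against 6 months all older libraries lay below all young ones for Col3a1 and Col5a3 in diaphragm, for Col1a1, Col1a2, Col5a3, Col11a2 and Col15a1 in gastrocnemius, for Col11a2 in soleus and for Col7a1 in tibialis anterior, beside 1.58%, 7.57%, 3.42% and 11.3% of all genes tested. All older libraries lay above all young ones for Col23a1 and Col8a1 in gastrocnemius and for Col23a1 in soleus, beside 6.53% and 2.23% of all genes.

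The timing of the falls was given by the comparison of each age with 6 months. At 9 months no collagen gene was called in any muscle by limma, edgeR or DESeq2, beside 0.108%, 0.143%, 0.123% and 0.00851% of all genes in the 4 muscles (in the order diaphragm, gastrocnemius, soleus, tibialis anterior, kept below), and at an unadjusted p under 0.05 there were 1, 1, 2 and 0, all lower. At 12 months 5 collagen genes were lower in diaphragm and 4 in gastrocnemius, beside 0.224% and 0.396% of all genes. None was called in soleus or tibialis anterior, beside 0.353% and 0.196% of all genes, though 10 in each were lower at an unadjusted p under 0.05; edgeR and DESeq2 each called 1 in soleus and none in tibialis anterior. At 18 months 5, 5, 5 and 2 were lower, beside 0.631%, 0.691%, 1.18% and 1.34% of all genes. At 21 months 5, 7, 5 and 5 were lower, beside 0.557%, 1.53%, 1.2% and 0.97%. At 24 months 3, 9, 6 and 7 were lower, beside 0.499%, 7.41%, 2.64% and 3.54%. By limma, rises were first called at 24 months, 2 in gastrocnemius and 2 in tibialis anterior, beside 11.4% and 10.9% of all genes, and in both muscles they were Col23a1 and Col8a1. By edgeR and DESeq2 these 2 genes were called higher in tibialis anterior at 21 months already and Col23a1 in soleus at 24 months, and edgeR also called Col17a1 higher in gastrocnemius at 18 months. Under total-count scaling the split at 24 months in tibialis anterior was 4 lower and 2 higher. Col1a1 was among the genes called lower at 18 months in every muscle, with changes of -0.98, -1.64, -1.26 and -0.66. The comparisons at different ages share the 6-month libraries.

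Curves over all 7 ages gave the same genes a shape. A gene called at any age was taken as age-related where a straight line or a logistic curve of log2 CPM on age had a Bayesian information criterion lower than that of no trend by over 6. This held for 5 collagen genes in diaphragm, 12 in gastrocnemius, 7 in soleus and 11 in tibialis anterior, beside 6.70%, 23.3%, 12.6% and 26.8% of all genes tested, and 5, 10, 5 and 7 of them fell. Among all genes that were age-related, 444 of 806, 1061 of 2767, 629 of 1536 and 1220 of 3145 fell. Under total-count scaling 5 of 5, 7 of 9, 5 of 8 and 5 of 11 collagen genes fell. Beside them, 373 of 786, 414 of 3728, 401 of 1719 and 467 of 3972 of all age-related genes fell under that scaling. Col3a1 then had no trend in gastrocnemius or tibialis anterior. Col1a1 had a logistic fall with its midpoint at 11.25 months in gastrocnemius, 11.75 months in tibialis anterior and 12.5 months in soleus, and a straight-line fall of 0.068 log2 units per month in diaphragm. Col1a2 had midpoints of 11.5, 11.75 and 13.25 months in the same 3 muscles. All 5 age-related collagen genes of diaphragm (Col1a1, Col1a2, Col3a1, Col5a2 and Col5a3) fitted a straight line. The 12-month libraries of soleus and tibialis anterior are in the third run of sample numbers, which cannot be told apart from that age.

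Basement membrane chains had class medians nearer to 0, but some members moved within the 1.5-fold limit. Col4a1, a chain of the type IV collagen network, had a median of 301 CPM in diaphragm at 6 months (259 to 347) and 212 CPM at 27 months (154 to 274), with 11 of 12 older libraries below all young ones; the change of -0.52 ± 0.07 had an adjusted p of 1.2e-09 and was under 1.5-fold. In gastrocnemius, soleus and tibialis anterior it was -0.03 ± 0.09, 0.26 ± 0.10 and 0.01 ± 0.09, with overlapping groups. Col15a1 went from 201 to 143 CPM in diaphragm (-0.53 ± 0.06) and from 125 to 87.4 CPM in gastrocnemius (-0.50 ± 0.07), again under 1.5-fold, and was -0.04 ± 0.08 in soleus; in gastrocnemius it had been called lower at 24 months (-0.61 ± 0.08). Col4a3, a type IV chain best known from the kidney glomerulus, was -0.40 ± 0.06, -0.36 ± 0.07, -0.52 ± 0.09 and -0.48 ± 0.08 in diaphragm, gastrocnemius, soleus and tibialis anterior at 27 months, all under 1.5-fold, with 8 of 12, 10 of 11, 9 of 12 and 9 of 12 older libraries below all young ones. It was called lower in tibialis anterior at 21 months (-0.60 ± 0.07), where it also had an age-related fall. Col18a1, the source of endostatin, was between -0.17 and 0.06 in the 4 muscles. Endothelial markers were read beside these genes. All 6 of 6 had negative changes in diaphragm, gastrocnemius and soleus and 5 of 6 in tibialis anterior. The median changes of all genes were 0.00, 0.04, 0.02 and 0.02, and their share with a negative change is not given here. Kdr, the VEGF receptor of capillaries, was called lower in the 3 limb muscles (-1.06, -0.74 and -0.77), beside 7.76%, 5.78% and 10.4% of all genes. How many of the other markers were called is not given here. The summed level of the 6 markers at 6 and 27 months was 581 to 689 and 488 to 588 CPM in diaphragm, and 346 to 414 and 223 to 310.4 CPM in gastrocnemius. It was 435 to 520.1 and 323 to 448 CPM in soleus, and 428 to 514 and 310.1 to 487 CPM in tibialis anterior. Their part in the collagen changes was not tested.

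Col7a1 was the one gene of this class called at 27 months. In tibialis anterior its median fell from 7.03 CPM at 6 months (4.88 to 8.51) to 2.66 CPM at 27 months (1.85 to 4.27), with no overlap, a change of -1.33 ± 0.14 (adjusted p = 1.9e-14). The fall came late there, with a midpoint at 23 months, and 27 months was lower than 18 months by 1.01 ± 0.14. In gastrocnemius it went from 3.70 to 1.97 CPM (-0.89 ± 0.18, adjusted p = 1.2e-05). In diaphragm and soleus it was -0.02 ± 0.15 and 0.04 ± 0.24, and tibialis anterior differed from soleus by -1.35 ± 0.29 (adjusted p = 3.3e-05). In GRCr8 Col7a1 lies next to Uqcrc1, a core subunit of mitochondrial complex III. Uqcrc1 was 0.04, -0.63, -0.58 and -0.34 at 27 months in diaphragm, gastrocnemius, soleus and tibialis anterior, called in gastrocnemius. After the mean of each age was removed, its log2 level had correlations with that of Col7a1 of 0.24, 0.28, -0.06 and 0.43. Whether reads of Uqcrc1 were counted for Col7a1 was not tested.

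Col23a1, a transmembrane collagen that sheds its ectodomain, rose late and in limb muscles. In soleus its lowest, median and highest libraries were 0.722, 1.41 and 1.97 CPM at 6 months, 0.979, 1.74 and 9.10 CPM at 24 months and 2.496, 9.46 and 38.5 CPM at 27 months. All 12 libraries at 27 months lay above every 6-month library, over a wide range. The change was 2.77 ± 0.39, a 6.84-fold rise (adjusted p = 4.5e-09). In tibialis anterior the medians were 1.45 CPM at 6 months, 2.20 at 21, 4.80 at 24 and 7.31 at 27 months (2.34 ± 0.25, adjusted p = 1.1e-13), and in gastrocnemius they were 1.14, 1.46, 2.57 and 4.20 CPM at the same ages (1.88 ± 0.25, adjusted p = 1.5e-09). In diaphragm Col23a1 was 2.57 CPM at 6 months and 3.05 CPM at 27 months (0.18 ± 0.11, adjusted p = 0.18). Diaphragm had the highest level of the 4 muscles at 6 months and the lowest at 27 months. The rise exceeded that in diaphragm by 1.64 ± 0.41 in gastrocnemius (adjusted p = 0.00025), 2.52 ± 0.35 in soleus (adjusted p = 2.6e-10) and 2.11 ± 0.35 in tibialis anterior (adjusted p = 5.6e-08). The midpoints of its curves were at 22, 26.5 and 22.75 months in gastrocnemius, soleus and tibialis anterior.

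**Figure D5:**
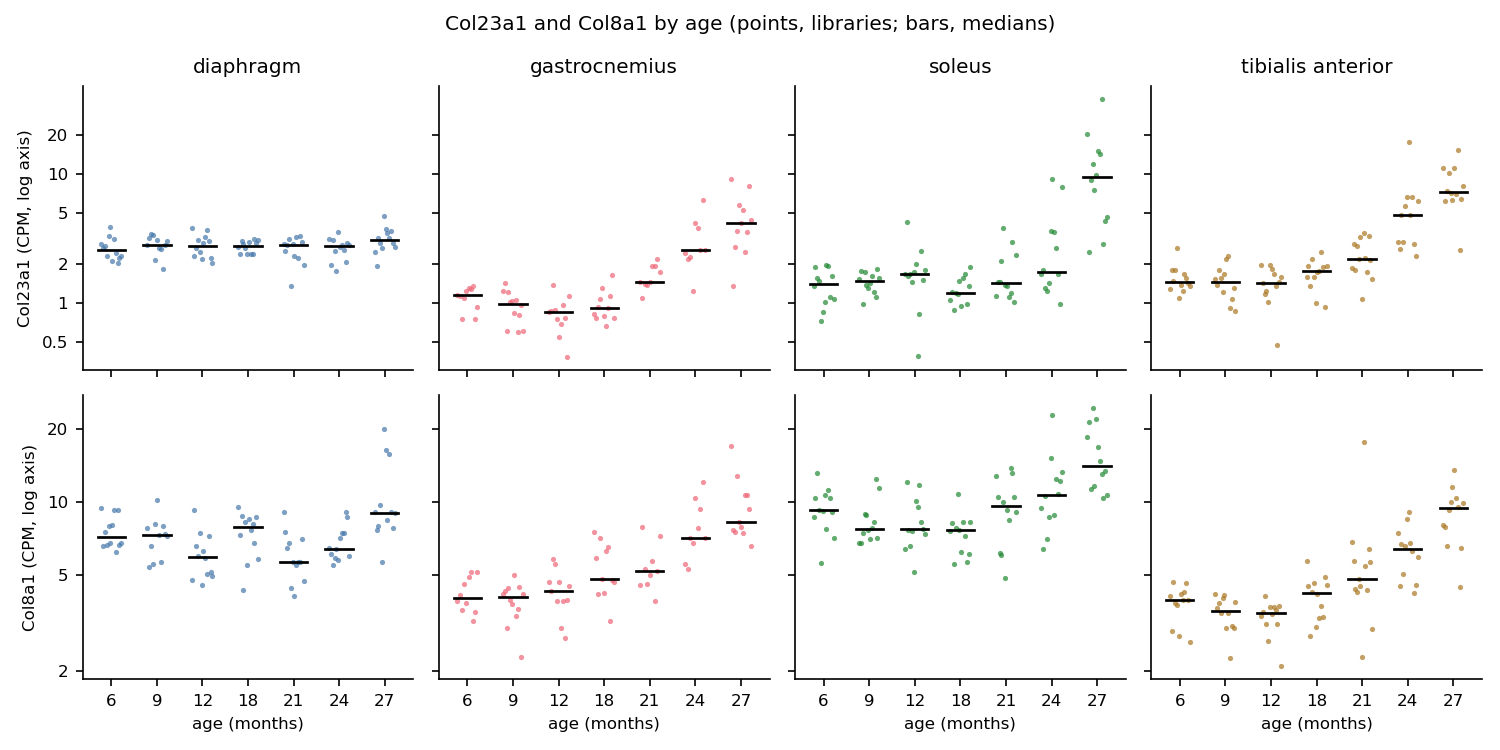
CPM (y axis, log scale) of Col23a1 (top) and Col8a1 (bottom) at each age (x axis, months) in the 4 muscles; points are libraries and bars medians. In the limb muscles both rise at 24 to 27 months, Col23a1 in soleus from a median of 1.41 to 9.46 CPM, and Col23a1 in diaphragm stays between 2.57 and 3.05 CPM.

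Col8a1, a short-chain collagen of vessel walls and of Descemet's membrane, rose in the same muscles. It went from 4.01 CPM at 6 months (3.21 to 5.13) to 8.28 CPM at 27 months (6.56 to 17.1) in gastrocnemius, with no overlap, from 3.93 CPM (2.63 to 4.67) to 9.41 CPM (4.43 to 13.6) in tibialis anterior, with 11 of 12 older libraries above all young ones, and from 9.24 CPM (5.58 to 13.3) to 14.1 CPM (10.4 to 24.5) in soleus. The changes were 1.2 ± 0.15, 1.24 ± 0.16 and 0.73 ± 0.15. In diaphragm it was 0.34 ± 0.13 (adjusted p = 0.031), under 1.5-fold, and the difference from diaphragm was called for gastrocnemius (0.82 ± 0.22) and tibialis anterior (0.84 ± 0.22). Col13a1, a transmembrane collagen of the neuromuscular junction, was called higher in tibialis anterior only, from 1.10 to 2.22 CPM (0.85 ± 0.16, adjusted p = 2e-06), and was 0.13 ± 0.17, 0.27 ± 0.13 and 0.43 ± 0.13 in diaphragm, gastrocnemius and soleus. Col16a1 was also called higher in tibialis anterior (0.65). Col17a1, a hemidesmosome collagen at under 1 CPM in its median library, was called lower in diaphragm (-0.68) and higher in gastrocnemius (0.93); in gastrocnemius at 27 months its median was 0.463 CPM and its highest library 4.24 CPM, and neither call held with sample quality weights. Col9a1 was called lower in gastrocnemius (-0.93) and tibialis anterior (-0.85), at medians of 0.333 and 0.411 CPM at 6 months. Its fall was not called in either muscle under total-count scaling, nor in gastrocnemius by edgeR or DESeq2. Col26a1 was called lower in soleus (-1.41 ± 0.56, adjusted p = 0.027), from 0.390 to 0.126 CPM; it held at most 24 counts in a library, and its call was lost with sample quality weights and without the filter on low counts.

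The 2 named genes of the interstitium outside the fibrillar class went different ways in the muscles. Col6a2, a chain of the beaded type VI filaments next to the basement membrane, went from 156 CPM (95.004 to 180.1) to 227 CPM (147 to 319) in soleus, a change of 0.57 ± 0.10 (adjusted p = 1.1e-06) just under 1.5-fold, and was -0.28 ± 0.07, -0.05 ± 0.09 and 0.23 ± 0.09 in diaphragm, gastrocnemius and tibialis anterior. The difference between soleus and diaphragm was called (0.79 ± 0.12, adjusted p = 1.2e-08). Col14a1 was -0.30 ± 0.09 in diaphragm, 0.19 ± 0.10 in gastrocnemius, -0.20 ± 0.09 in soleus and 0.51 ± 0.14 in tibialis anterior, none of them called, while tibialis anterior differed from diaphragm by 0.76 ± 0.15 (adjusted p = 9.9e-06).

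The late part of life was compared directly at 27 against 18 months, which does not use the 6-month libraries. In soleus 6 collagen genes were higher and none lower, beside 7.43% and 6.09% of all genes: Col23a1 (2.89 ± 0.41), Col8a1 (1.08 ± 0.16), Col3a1 (0.79 ± 0.16), Col4a1 (0.77 ± 0.10), Col6a2 (0.72 ± 0.10) and Col5a2 (0.71 ± 0.12). Col3a1 went there from a median of 340.4 CPM (263 to 485) to 601 CPM (302 to 984), whereas Col1a1 was 0.09 ± 0.17 at 27 against 18 months. In gastrocnemius 2 were higher and none lower, beside 7.99% and 3.75% of all genes, Col23a1 (2.08 ± 0.25) and Col8a1 (0.85 ± 0.14). In tibialis anterior 3 were higher, beside 12.4%, Col23a1 (2.22 ± 0.25), Col8a1 (1.15 ± 0.16) and Col13a1 (0.78 ± 0.16), and 2 lower, beside 7.43%, Col7a1 (-1.01 ± 0.14) and Col9a1 (-0.86 ± 0.28); under total-count scaling 6 were higher and 1 lower. In diaphragm none was higher and 2 were lower, beside 0.897% and 0.648%: Col5a3 (-0.75 ± 0.12) and Col11a2 (-0.60 ± 0.21, adjusted p = 0.035). Without the far libraries Col11a2 was at -0.57 and not called. For the counts of 0, at an unadjusted p under 0.05, 1 collagen gene was higher in diaphragm, 4 were lower in gastrocnemius and 1 was lower in soleus, and edgeR and DESeq2 called none of these.

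Whether 2 muscles differed in how much a gene changed between 6 and 27 months was tested in the joint fit, the second muscle of each pair minus the first. Against diaphragm, 7 collagen genes were called for gastrocnemius (5 positive, 2 negative), 7 for soleus (all positive) and 11 for tibialis anterior (9 positive, 2 negative), beside 21.6%, 11.9% and 20.3% of all genes. By direction, 13.8%, 6.3% and 13.3% of all genes were positive and 7.77%, 5.56% and 7% negative. Between limb muscles, 6 were called for gastrocnemius and soleus, 4 for gastrocnemius and tibialis anterior and 6 for soleus and tibialis anterior, beside 14.5%, 7.32% and 15.8%. For gastrocnemius and soleus 3 were positive and 3 negative, beside 4.82% and 9.64% of all genes. Here too the counts are out of at most 27 collagen genes and are not read as a difference from all genes. Besides Col3a1 and Col23a1, the soleus and diaphragm differed for Col4a1 (0.72 ± 0.12), Col5a1 (0.66 ± 0.14), Col5a2 (0.84 ± 0.14), Col5a3 (0.76 ± 0.17) and Col6a2. For Col1a1, gastrocnemius and tibialis anterior differed by 1.35 ± 0.28 (adjusted p = 3.3e-05) and diaphragm and tibialis anterior by 0.91 ± 0.26 (adjusted p = 0.0019). Gastrocnemius and soleus did not pass the test against diaphragm for Col1a1 (-0.44 ± 0.28 and 0.27 ± 0.27). Pairs that share a muscle share its libraries. Col26a1, which passed the filter on low counts in soleus only, is among the genes counted for soleus with gastrocnemius and with tibialis anterior, and for soleus with each other muscle at 6 months, and its differences support nothing. Under total-count scaling the calls against diaphragm were 9 positive and 1 negative for gastrocnemius and 16 positive and 1 negative for tibialis anterior, and for gastrocnemius and soleus they went from 3 positive and 3 negative to 1 and 4. That scaling moved the median of all genes by 0.30 for gastrocnemius and 0.35 for tibialis anterior.

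Genes that make and modify collagen were read from a list of 30, of which 27 were tested in each muscle. These include the prolyl and lysyl hydroxylases that act on the chains inside the cell, the proteases that trim the propeptides and the lysyl oxidases that cross-link the fibrils. Counts of this list and of those after it stand beside the shares of all genes given above for 27 months: 3.27% higher and 4.25% lower in diaphragm, 15.1% and 7.76% in gastrocnemius, 9.21% and 5.78% in soleus and 17.2% and 10.4% in tibialis anterior. In diaphragm none was called higher and 2 lower, the lysyl oxidases Loxl2 (-0.85 ± 0.11) and Lox (-0.86 ± 0.17), and the list's median was -0.13. In gastrocnemius 5 were higher and 3 lower: the lysyl hydroxylase Plod2 (1.67 ± 0.14) and the prolyl hydroxylase subunit P4ha3 (1.62 ± 0.33) led the rises, and Loxl4 (-0.92 ± 0.11) and P4ha1 (-0.80 ± 0.07) the falls. In soleus 2 were higher, P4ha3 (1.34 ± 0.23) and Loxl1 (0.89 ± 0.13), and 1 lower, the procollagen protease Adamts3 (-0.75 ± 0.15). In tibialis anterior 8 were higher and 2 lower, led by P4ha3 (2.76 ± 0.35) and the procollagen protease Adamts14 (2.16 ± 0.18), with P4ha1 (-1.18 ± 0.08) and P4ha2 (-0.61 ± 0.07) lower. The medians in the limb muscles were -0.05, 0.12 and 0.22.

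Partners and receptors of collagen were read in the same way. Of 6 basement membrane partners tested, the laminin chain Lama5 was the only one called, higher in gastrocnemius (1.73 ± 0.15), soleus (1.23 ± 0.11) and tibialis anterior (2.32 ± 0.15). Of 7 collagen receptors and uptake genes, the integrin chain Itga1 was lower in diaphragm (-0.62 ± 0.05) and gastrocnemius (-0.62 ± 0.06). The discoidin receptor Ddr1 was higher in gastrocnemius (0.82 ± 0.09) and tibialis anterior (0.92 ± 0.08), and none was called in soleus by limma. The TGF-beta pathway, a signal known to induce fibrillar collagen, was read from a list of 17 genes, of which 16 had counts. Ltbp1, which holds latent TGF-beta in the matrix, was higher in gastrocnemius (1.92 ± 0.13), soleus (1.42 ± 0.13) and tibialis anterior (2.26 ± 0.15). The ligand gene Tgfb2 was higher in tibialis anterior (1.69 ± 0.14). The other genes of this list are not given here, so these rises do not describe the pathway.

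Markers of fibroblasts and tendon cells were read beside the fibrillar genes. Of 10 fibroblast markers, 1 was called lower in diaphragm (Lum, a small proteoglycan of fibrils, -0.73 ± 0.11) and none in the limb muscles, where 1 was higher in gastrocnemius (Pi16, 0.71 ± 0.14) and 2 in tibialis anterior (Pi16, 1.32 ± 0.14, and Mfap5, 0.68 ± 0.11). Their summed level at 6 and 27 months was 1828 to 2222 and 1318 to 1743 CPM in diaphragm, 1301 to 1720.4 and 1383 to 1934 CPM in gastrocnemius, 1471 to 2379.5 and 1711 to 2703 CPM in soleus, and 699 to 1135 and 847 to 1308 CPM in tibialis anterior. The range thus moved down in diaphragm, where it no longer overlapped, and overlapped in the limb muscles. Of 7 tendon cell markers tested, 2, 4, 3 and 3 were lower and 0, 0, 1 and 2 higher in diaphragm, gastrocnemius, soleus and tibialis anterior. Cilp2 was lower in every muscle (-2.28 ± 0.72, -1.86 ± 0.19, -1.29 ± 0.17 and -0.98 ± 0.25), and Tnmd, the tendon cell membrane protein tenomodulin, in diaphragm, soleus and tibialis anterior (-1.69 ± 0.54, -0.95 ± 0.14 and -0.85 ± 0.25), whereas Thbs4 was higher in soleus and tibialis anterior (1.05 ± 0.13 and 0.82 ± 0.18). Summed over the 7, the level at 6 and 27 months was 114 to 817 and 114 to 688 CPM in diaphragm, 861 to 1393 and 688 to 1139 CPM in gastrocnemius, 559 to 1752 and 1445 to 2317 CPM in soleus, and 115 to 319 and 172 to 424 CPM in tibialis anterior. After the mean of each age was removed, the log2 level of Tnmd had correlations with Col1a1 of 0.59 to 0.66 over the libraries of each muscle. The part of tendon tissue in the collagen changes was not tested.

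Other cell types also moved with age in the limb muscles. All 4 adipocyte markers were higher in gastrocnemius, soleus and tibialis anterior (medians 1.34, 1.45 and 1.83) and none was called in diaphragm. Of 5 macrophage markers, 5, 1 and 5 were higher in gastrocnemius, soleus and tibialis anterior and none in diaphragm. The cartilage and bone list, of which 1, 2, 2 and 3 genes were tested, held Sox9, which was higher in the limb muscles (0.72, 1.05 and 1.28), and Acan, which was lower in gastrocnemius and soleus (-1.86 and -1.61) like Col2a1 and higher in tibialis anterior (0.98). Of 6 Schwann cell markers, 2 were lower and 1 higher in gastrocnemius and 1 higher in tibialis anterior, and of 4 smooth muscle markers 2 were higher in each of these muscles. The part of these cells in the collagen levels was not tested.

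Within a muscle and age, pairs of fibrillar genes had higher median correlations than pairs of basement membrane genes. With the mean of each age removed, the median correlation over the 45 pairs of fibrillar genes was 0.38 in diaphragm, 0.48 in gastrocnemius, 0.40 in soleus and 0.48 in tibialis anterior. Over the 15 pairs of basement membrane genes it was 0.04, 0.12, 0.17 and 0.30, and over the 60 pairs of 1 gene of each class 0.19, 0.22, 0.22 and 0.33. The basement membrane pair of Col4a1 and Col15a1 was higher, at 0.57, 0.64, 0.78 and 0.68. Both classes hold genes of low counts, with medians of 74 for Col4a4 and Col7a1 and 12 for Col2a1. The part of low counts in these medians was not tested. With Col1a1, the correlations of Col3a1 were 0.74 to 0.87, those of Col11a1 0.73 to 0.81 and those of Col6a2 0.69 to 0.82, whereas those of Col23a1 were 0.16 to 0.44 and those of Col7a1 -0.16 to 0.11. These values are a description over 83, 73, 84 and 85 libraries that share depth scaling, and no test is given.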

How the data were processed

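RNA of 325 rat muscle libraries was measured by strand-specific total RNA sequencing. The authors deposited raw read counts per gene, 1 table a library, made with an ArrayStudio pipeline on rat genome B6.0 and an in-house gene model based on RefSeq; the aligner's settings and the use of strand in counting are not given in the sources used here. Lines of 1 symbol were summed (494 symbols had more than 1 line). Within each muscle, genes were filtered with filterByExpr (minimum count 10, minimum total 15), scaled by TMM (edgeR 4.0.16) and tested with limma-voom (limma 3.58.1, R 4.3.3), all ages in the fit, two-sided, with Benjamini-Hochberg adjustment over all genes. Differences between muscles came from 1 fit of all libraries over 12784 genes. The steps were tested on simulated data. Depth was 17555294 to 85316329 counts a library.

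Members, gene lists and tests were chosen with earlier results of these data known. Named genes were a fixed panel of collagens, the 3 largest called rises and falls of each muscle among genes whose log2 CPM averaged over 0, the largest called difference of each muscle pair, members of counts of 5 or fewer, and the 2 largest rises and falls of each list. The alternatives were total-count scaling, size factors and the test of DESeq2 1.42.0, edgeR's quasi-likelihood test, sample quality weights, no filter, other thresholds, a replicate block, left-out lines and left-out libraries. Counts over the TGF-beta list are not reported here.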

Additional observations from a re-analysis of the deposited data

Results flagged for a closer look

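In 1 of the 54 combinations of gene and group with 9 or 10 libraries, a library stood apart from the rest. Col15a1 in gastrocnemius at 6 months had its highest library, replicate 1, at 7.15 log2 CPM, and the next at 6.91; chance sets such a library apart in about 1 of 20 groups.

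For 15 of 18 named collagen genes the change from 6 to 27 months differed between 2 muscles by the test of the difference (limma, adjusted over all genes). Values are the second muscle minus the first, and for each gene the largest called difference over all pairs. The 18 were a fixed panel and genes named for a large called change or difference. No share of all genes stands beside this count, so it is not a result about collagen genes as a group. Between diaphragm and soleus the differences were 2.52 for Col23a1 (adjusted p = 2.6e-10), 1.42 for Col3a1 (8.6e-10), 0.84 for Col5a2 (6.1e-08), 0.79 for Col6a2 (1.2e-08), 0.76 for Col5a3 (0.00015), 0.72 for Col4a1 (3.4e-07) and 0.66 for Col5a1 (2.8e-05). Between diaphragm and tibialis anterior they were 0.84 for Col8a1 (0.00061), 0.76 for Col14a1 (9.9e-06) and 0.68 for Col13a1 (0.01). Between gastrocnemius and tibialis anterior they were 1.35 for Col1a1 (3.3e-05) and 1.19 for Col1a2 (2.2e-05). Between soleus and tibialis anterior they were -1.35 for Col7a1 (3.3e-05) and 1.05 for Col11a1 (0.0011). Between gastrocnemius and soleus the difference was -1.89 for Col26a1 (0.019), a gene that passed the filter on low counts in soleus only and had no count in 62 libraries, so that this difference supports nothing. The pairs with gastrocnemius cannot be told apart from its own run of sample numbers.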

How the results depend on the processing

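With a 2-fold threshold the number of collagen genes called was 1 in diaphragm and 1 in gastrocnemius at 12 months, 0, 2, 2 and 0 at 18 months in diaphragm, gastrocnemius, soleus and tibialis anterior, 1 in tibialis anterior at 21 months, 6 in gastrocnemius and 3 in tibialis anterior at 24 months, and 4, 6 and 3 in diaphragm, gastrocnemius and tibialis anterior at 27 months. At 27 against 18 months it was 0, 1, 2 and 3 in the 4 muscles. For the differences in ageing it was 4, 2 and 3 against diaphragm, 2 and 2 against gastrocnemius, and 3 between soleus and tibialis anterior, and for the levels at 6 months 8, 7 and 6 against diaphragm. With Bonferroni adjustment it was 2 and 2 in diaphragm and gastrocnemius at 12 months, 0 in tibialis anterior at 18 months, 3 and 4 in diaphragm and gastrocnemius at 21 months, 5 in diaphragm at 27 months, 1 in diaphragm at 27 against 18 months, 2, 3, 1, 2 and 1 for the differences in ageing other than diaphragm and soleus, and 8 for gastrocnemius against diaphragm at 6 months. edgeR and DESeq2 each called 8 in diaphragm at 21 months, 1 there at 27 against 18 months and 1 in soleus at 12 months. Sample quality weights gave 1 in diaphragm and 4 in gastrocnemius at 27 against 18 months, and 1 in soleus and 1 in tibialis anterior at 12 months. Total-count scaling gave 1 in diaphragm at 27 against 18 months, and for tibialis anterior against diaphragm 17 for ageing and 21 at 6 months. Without the far libraries, an alternative added after seeing the data, diaphragm had 1 at 27 against 18 months. Shares of all genes under each setting do not stand beside these counts, nor beside the total-count splits of calls given above. These counts therefore show how the calls moved with the setting, and not how collagen genes compared with all genes.

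Changes at 27 months that were not called turned sign as follows. With total-count scaling, which moved the median change of all genes to 0.04, 0.32, 0.16 and 0.34 in diaphragm, gastrocnemius, soleus and tibialis anterior, they were 0.0214 for Col7a1 in diaphragm. In gastrocnemius they were 0.17 for Col18a1, 0.16 for Col3a1, 0.26 for Col4a1, 0.10 for Col5a1 and 0.23 for Col6a2, and in soleus 0.11 for Col15a1. In tibialis anterior they were 0.23 for Col11a1, 0.0346 for Col3a1, 0.25 for Col5a1 and 0.14 for Col5a2. With sample quality weights they were 0.0308 for Col18a1 and 0.0513 for Col7a1 in diaphragm, 0.0446 for Col4a1 in gastrocnemius, -0.00023 for Col7a1 in soleus and -0.0147 for Col4a1 in tibialis anterior. Col7a1 in soleus was -0.0227 by edgeR and -0.027 by DESeq2. Without the far libraries Col18a1 was 0.0111 and Col7a1 0.10 in diaphragm. The cause was not tested. Of the single-gene values at 27 months under all alternatives, 697 kept direction and call, 16 lost and 4 gained a call, and 20 turned sign. For the called single-gene differences in ageing between muscles, 126 values kept direction and call under the alternatives and 49 lost the call. These counts cannot be set against those at 27 months. Genes not called were left out of the differences but not at 27 months, and fewer alternatives were run on the differences.

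The replicate numbers of the labels do not name animals. Libraries of the same number and age in 2 muscles had a median correlation of deviations from the group means of 0.13 over 468 pairs (-0.62 to 0.74), against 0.014 for the same number at another age, and in 166 of the 468 the same-numbered library was the best match. This is a hint from the data that some numbers may mark 1 animal, and not every pair followed it; whether they do could not be settled. With the number as a replicate block in the fit of each muscle, 8, 10, 8 and 8 collagen genes were called at 27 months, as without it. In these fits a number joins libraries of different ages, and so of different animals. The block therefore could not test whether libraries of different muscles came from the same animal. Counts between muscles with such a block are not given here.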
